A study of Equus caballus with 8 samples.

Results

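Hyaluronan is a long, unsulfated sugar chain that cells extrude into the pericellular space, and the large aggregating proteoglycans, called hyalectans, hang on it. Versican (VCAN) is the hyalectan of loose and provisional matrix, aggrecan (ACAN) is that of cartilage and of the compressed regions of tendon, and small link proteins (HAPLN1, HAPLN3) lock the core proteins to the chain. The chain is made at the plasma membrane by the synthases HAS1, HAS2 and HAS3, and is bound at the cell surface by CD44 and by HMMR (also called RHAMM). Its depolymerisation by fibroblasts needs the protein CEMIP.

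These 10 genes were chosen by name. HAPLN1 had no row in the table used here and is named only. The other 9 were among the 15266 named genes of the table, and all 9 passed the filter on low values together with 14907 genes in all. In RefSeq's horse assembly TB-T2T, in which 10 of 10 were found, VCAN is the neighbour of HAPLN1 and ACAN is the neighbour of HAPLN3.

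The cells were equine mesenchymal stem cells grown from sternal bone marrow (BM-MSCs), stromal cells that attach to culture plastic. The 4 donor horses carry the letters D, J, L and W. The marrow of each horse was divided between an untreated culture and a culture that received 1 ng/ml recombinant human TGF-β2, which gave 4 untreated and 4 TGF-β2-treated libraries of poly(A) RNA, paired by horse. Both kinds of culture were grown in low glucose medium with fetal bovine serum and basic fibroblast growth factor. The labels place the exposure between isolation and passage 3 or 4, and the methods give it as 3 passages. Each horse contributed a single pair of cultures, so a difference within a horse has no replicate of its own. The purpose of the series was to find which secreted and matrix genes relevant to tendon healing are altered by TGF-β2, and the comparison below asks this of the hyaluronan system.

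The libraries held 39184554 to 57228675 reads assigned to named genes. Values are normalized counts, that is reads scaled by each library's size factor but not by transcript length, so that levels are compared between libraries of 1 gene and not between genes. A floor of 3 reads was worth 2.02 to 3.60 normalized counts. Of 9 TGF-β response genes tested, 5 rose, among them TGFBI, SKIL, CTGF and PMEPA1, and JUNB fell. Over all genes 5.59% were called higher and 5.87% lower. SMAD7, LTBP2 and TGFB1 were not called, with log2 fold changes of 0.02, -0.13 and 0.72. This list was chosen with earlier results of these data known, so the shares are a description. The 5 stromal markers looked for (THY1, NT5E, ENG, ITGB1 and PDGFRB) were present in every library, and 1 was called. THY1, which encodes the MSC marker CD90, fell with a log2 fold change of -2.21 (adjusted p = 0.0494 in limma, and 0.00203 with a term for the horse). In fits without that term, leaving out horse D, L or W lost the call. With the term it held whichever horse was left out. ITGB1 was higher in all 4 horses (log2 fold change 0.91) and ENG lower in all 4 (-0.42), both under the fold threshold. Of 14 markers of blood and endothelial cells, 7 had a row. Their summed level was 75.7 to 586 normalized counts in the untreated and 50.03 to 277 in the treated libraries, and it was lower after treatment in each horse. Of the 5 that were tested, LAPTM5 alone fell, and only with a term for the horse in the limma model. That call was lost without horse D or W, and 7.31% of all genes were called lower by this model. CD3E, a T cell gene, was listed at 0 in all 4 treated libraries and at 112 in the untreated library of horse J. The part of these other cells in the results below was not tested.

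Of the 9 genes, 1 rose after TGF-β2 treatment, namely HAS3, and 0 fell. A call required a Benjamini-Hochberg adjusted p under 0.05 in limma and an absolute log2 fold change over 1. Among all genes tested 5.59% were called higher and 5.87% lower by the same rule. When a term for the horse (a block) was added to the model, the background was 6.83% higher and 7.31% lower, and again HAS3 was the single gene of the 9 called. DESeq2 and edgeR on the recovered reads also called HAS3 alone, and at an unadjusted p under 0.05 limma gave 1 gene higher and 0 lower.

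The 4 horses behaved differently in most of the 9 genes. The median absolute log2 fold change over the 9 was 0.429, against 0.350 over all genes, and the signed median was -0.02, against 0.01. The treated and untreated libraries did not overlap for 1 of the 9, against 27.8% of all genes, and the difference had the same sign in all 4 horses for 1 of the 9, against 51.9% of all genes. That gene was HAS3 in both counts. The SD of the log2 difference between the horses had a median of 1.05 over the 9 genes and of 0.313 over all genes, and in 9 of 9 it was above the latter. The genes were few and were chosen with earlier results of these data known, so these shares are a description.

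**Figure D1:**
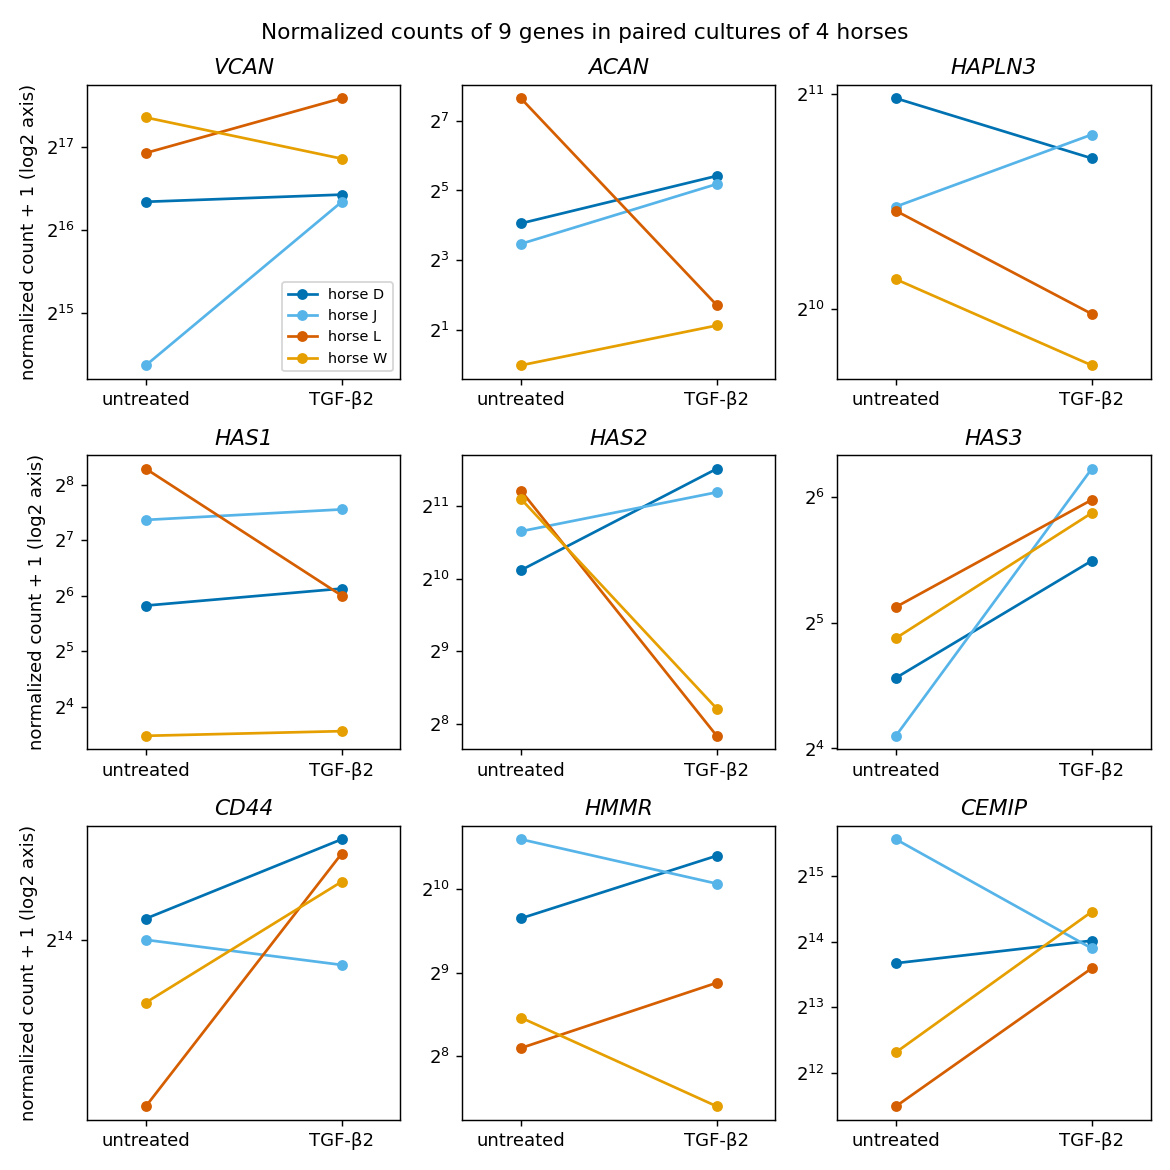
Normalized counts + 1 (log2 axis) of the 9 genes in the untreated and the TGF-β2-treated culture of each horse, joined by a line for each horse. The 4 lines of HAS3 run upward, from 16.2 to 33.9 normalized counts in the untreated to 44.1 to 73.9 in the treated libraries, whereas the lines of HAS2, CEMIP, HMMR and ACAN cross.

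Versican was abundant in every library and was not called. In the untreated libraries of horses D, J, L and W it stood at 83002, 21268, 124626 and 167505 normalized counts, and in the treated ones at 88104, 82962, 196514 and 118863. Horse J had the lowest untreated value and the largest difference, 3.90-fold higher after treatment, whereas horse W was 1.41-fold lower and horse D differed by 1.06-fold. The 4 treated values spanned 2.37-fold and the 4 untreated ones 7.88-fold, and the groups overlapped. The mean was 99100.5 ± 62310.2 (SD, n = 4) untreated and 121611 ± 52391 treated. Limma gave a log2 fold change of 0.55 (SE 0.62, 95% interval -0.86 to 1.97, adjusted p = 0.567, and 0.341 with the block). Without horse J the log2 fold change was 0.08. The genes whose log2 levels followed VCAN most closely over the 8 libraries were ZC3H11A (Pearson r = 0.98), SUDS3 and SIX4.

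Aggrecan was at low counts in 7 of the 8 libraries, 3 of which held fewer than 3 reads. The untreated values of horses D, J, L and W were 15.7, 10.1, 198 and 0 normalized counts, from 18, 15, 210 and 0 reads. The treated values were 41.7, 35.3, 2.30 and 1.20, from 35, 33, 2 and 1 reads. Horses D and J were 2.66-fold and 3.5-fold higher after treatment. Horse L went the other way, with an untreated level 86.1 times the treated one (95% exact interval 23.5 to 715, counting error only). In horse W both libraries lay under the floor of 3 reads and no fold is given. The mean difference of -0.43 on the log2 scale (SE 1.65, 95% interval -4.19 to 3.34, adjusted p = 0.883) had an interval too wide to show a change in either direction. Without horse L it was 1.40 (adjusted p = 0.593, and 0.0533 with the block). That mean includes horse W, whose log2 difference of 1.14 comes from 0 and 1 reads and is set by the pseudocount. It is therefore not a rise seen in each horse left. Only 12 of 14907 genes had a larger SD of the horse differences than ACAN (3.67). Its closest followers were HUNK (r = 0.96), C13H7orf50 and NIPAL1.

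HAPLN3, the link protein expressed widely outside cartilage, varied little. Its levels in horses D, J, L and W were 2020.3, 1423, 1404 and 1125 normalized counts untreated and 1664, 1796, 1006 and 852 treated. It was lower after treatment in 3 horses, by 1.21-fold to 1.40-fold, and 1.26-fold higher in horse J. Its log2 fold change was -0.21 (SE 0.28, 95% interval -0.84 to 0.43, adjusted p = 0.641). It was -0.12 without horse L and -0.39 without horse J (adjusted p = 0.397, and 0.0278 with the block), under the fold threshold in each case. The SD of its horse differences was 0.371, the smallest of the 9 and exceeded by 42.2% of all genes. RNF8 (r = 0.97) led the genes with a like pattern, before LOC111775446 and LOC106782391.

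**Figure D2:**
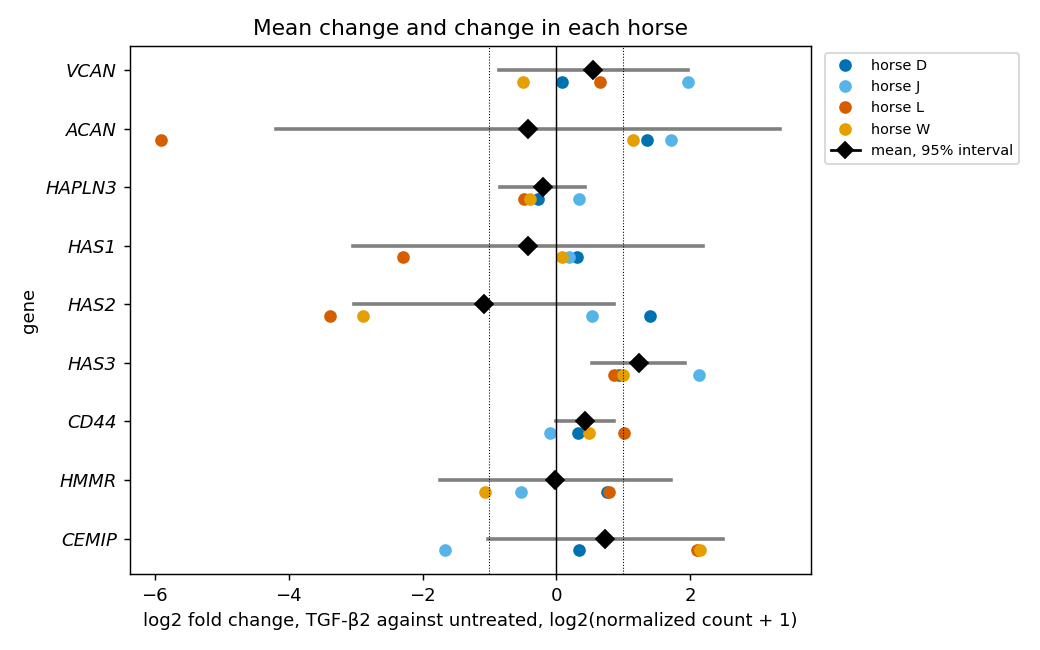
Log2 fold change, TGF-β2-treated against untreated, of the 9 genes on the log2(normalized count + 1) scale: diamonds are the means of 4 horses with their 95% interval from limma without a horse term, circles are the single horses, and dotted lines mark the fold change threshold. The intervals include the differences in level between horses, so they do not measure the spread of the circles. The mean of HAS3 (1.23) lies past the threshold with its interval above 0, the interval of CD44 touches 0, and those of the other 7 genes include 0.

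The 3 synthases did not move as a group. HAS3, which makes shorter chains than the other synthases in cell-free assays, was the gene that rose. Its untreated levels in horses D, J, L and W were 22.6, 16.2, 33.9 and 28.4 normalized counts (26, 24, 36 and 28 reads), and its treated levels 44.1, 73.9, 62.1 and 57.7 (37, 69, 54 and 48 reads). Every treated library lay above every untreated one. The differences were 1.95-fold in horse D, 4.57-fold in horse J, 1.83-fold in horse L and 2.03-fold in horse W. The mean went from 25.3 ± 7.63 to 59.4 ± 12.3 (SD, n = 4), a log2 fold change of 1.23 (SE 0.30, 95% interval 0.54 to 1.92, adjusted p = 0.0224 in limma and 0.0298 with the horse as a block). DESeq2 gave an adjusted p of 0.00171. The call did not hold once any 1 horse was removed, at adjusted p of 0.0592 to 0.0996 and log2 fold changes of 0.93 to 1.35, and with each library scaled to its total the log2 fold change was 0.92 (adjusted p = 0.0457), where the median of all genes was -0.30. TANC1 (r = 0.98), NEURL4 and MFAP3 had the most similar pattern.

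HAS2, the synthase that makes most hyaluronan in fibroblasts and that embryos cannot do without, split the horses into opposite directions. Untreated, it stood at 1110.2, 1610.4, 2376 and 2197 normalized counts in horses D, J, L and W. After TGF-β2 it stood at 2927, 2338, 228 and 296. Horses D and J were 2.64-fold and 1.45-fold higher, and horses L and W were 10.4-fold and 7.43-fold lower. The horses with the higher untreated levels were thus those with the lower treated levels, and the spread between horses widened from 2.14-fold to 12.9-fold. On average the log2 fold change was -1.08 (SE 0.85, 95% interval -3.02 to 0.85, adjusted p = 0.399, and 0.388 with the block). It was negative with each horse left out but ran from -1.91 without horse D to -0.32 without horse L. The SD of the horse differences was 2.40, and 99 of 14907 genes (0.664%) had a larger one. The nearest genes by pattern, PAFAH1B2 (r = 0.92), SUPT16H and NIT2, were less close than those of most other members.

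HAS1, the synthase that cells switch on mainly under inflammatory stimuli, differed more between horses than with treatment. The untreated values were 55.7, 164, 312 and 10.1 normalized counts in horses D, J, L and W and spanned 30.7-fold. The treated values were 69.1, 187, 63.2 and 10.8. Horse L was 4.93-fold lower after treatment, and the other 3 horses were between 1.07-fold and 1.24-fold higher. The mean log2 fold change was -0.43 (SE 1.15, 95% interval -3.04 to 2.19, adjusted p = 0.827), and without horse L it was 0.19. With the horse as a block in limma, the SE was 0.49 and the interval -1.64 to 0.78 (adjusted p = 0.536). Genes following HAS1 were GATAD2A (r = 0.98), NIPAL1 and LOC100072925, of which NIPAL1 was also near ACAN. In both HAS1 and ACAN the untreated library of horse L was the highest of the 8.

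Summed over the 3 synthases, the horses kept the split of HAS2. Horse D went from 1189 to 3039.7 normalized counts and horse J from 1791 to 2599, while horse L went from 2722 to 353 and horse W from 2235 to 364. HAS2 made up 87.3% to 98.3% of the synthase reads in the untreated libraries. After treatment it made up 96.3% in horse D and 90.0% in horse J, but 64.5% in horse L and 81.2% in horse W. The share of HAS3 was 0.902% to 1.90% in the untreated libraries, and after treatment 1.45% in horse D, 2.84% in horse J, 17.6% in horse L and 15.8% in horse W. The shares are of reads, which are not corrected for transcript length. In horses L and W the larger share of HAS3 thus went with far fewer HAS2 reads, as well as with the higher HAS3 level seen in all 4 horses.

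**Figure D3:**
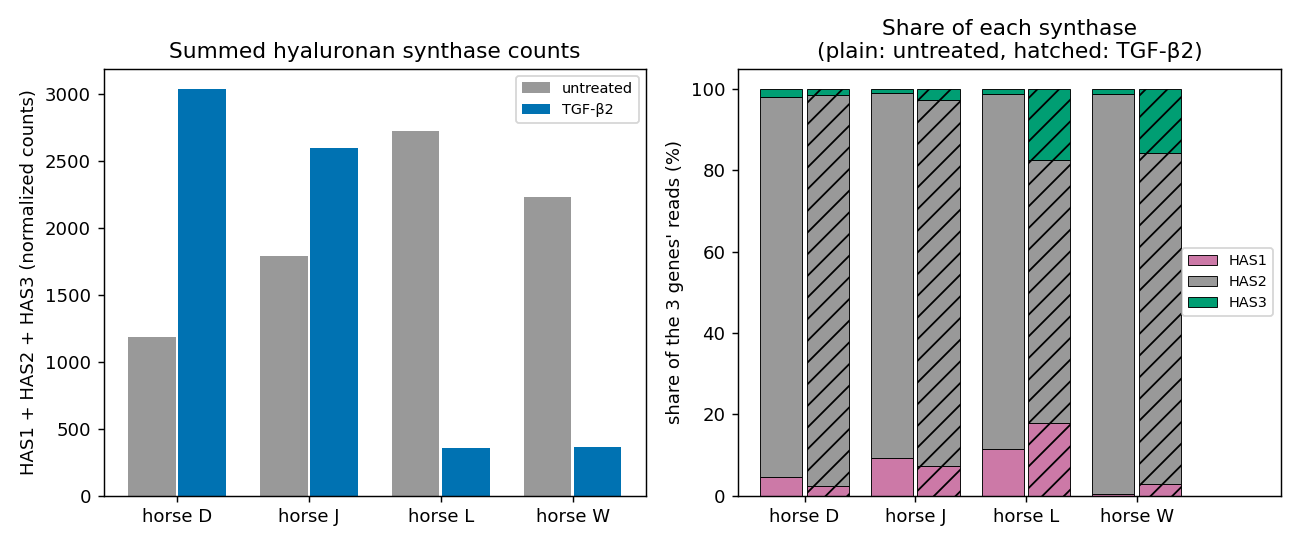
Left, summed normalized counts of HAS1, HAS2 and HAS3 in the untreated (grey) and TGF-β2-treated (blue) culture of each horse; right, the share of each synthase in the reads of the 3 genes (%), plain bars untreated and hatched bars treated. The sum is higher after treatment in horses D and J and lower in horses L and W, where the share of HAS3 reaches 17.6% and 15.8%.

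CD44, the main hyaluronan receptor and one of the surface markers by which MSCs are recognised, was abundant in every library. The untreated values in horses D, J, L and W were 17396, 16400.0, 10325 and 13775 normalized counts, and the treated values were 21687, 15296, 20844 and 19278. It was higher after treatment in horses D, L and W, by 1.25-fold, 2.02-fold and 1.40-fold, and 1.07-fold lower in horse J. The mean was 14474 ± 3159.6 untreated and 19276 ± 2835 treated (SD, n = 4). The log2 fold change of 0.43 (SE 0.19, 95% interval -0.00 to 0.86) did not pass the test (adjusted p = 0.137, and 0.135 with the block) and was 0.12 with each library scaled to its total. It was 0.23 without horse L and 0.61 without horse J (adjusted p = 0.0644, and 0.0356 with the block), still under the fold threshold. The genes most like it were NUAK2 (r = 0.97), LOC111771391 and ST5.

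HMMR binds hyaluronan and also sits on the mitotic spindle, and its transcript is made in dividing cells. Its level was 803, 1549, 273 and 352 normalized counts in the untreated libraries of horses D, J, L and W and 1351, 1072, 470.2 and 168 in the treated ones. Horses D and L were 1.68-fold and 1.72-fold higher after treatment, and horses J and W were 1.44-fold and 2.09-fold lower. The log2 fold change was -0.02 (SE 0.76, 95% interval -1.74 to 1.71, adjusted p = 0.991). With the horse as a block in limma, the SE was 0.35 and the interval -0.89 to 0.86 (adjusted p = 0.977). Over the 8 libraries the 3 genes closest to HMMR were FOXM1 (r = 0.999), a transcription factor of the mitotic programme, PBK and AUNIP, all with r of at least 0.998.

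The 20 mitosis genes set beside it (among them MKI67, TOP2A, CCNB1 and PLK1) differed between horses in the same way. All 20 were higher after treatment in horse D (median log2 difference 0.90) and in horse L (1.04), and all 20 were lower in horse W (-0.48). In horse J 6 were higher and 14 lower, with a median of -0.14, and the value of HMMR (-0.53) lay below the whole list. Of the 20, 0 were called by limma with or without the block, by DESeq2 or by edgeR, and 0 had an unadjusted p under 0.05 in limma. Without the block limma called 5.59% of all genes higher and 5.87% lower. In bulk RNA, fewer cells of a kind and less RNA per cell cannot be told apart, so HMMR is reported here as a level of the culture. In HAS2, horse D was higher and horse W lower as in these genes, whereas horses J and L took the opposite sign.

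**Figure D4:**
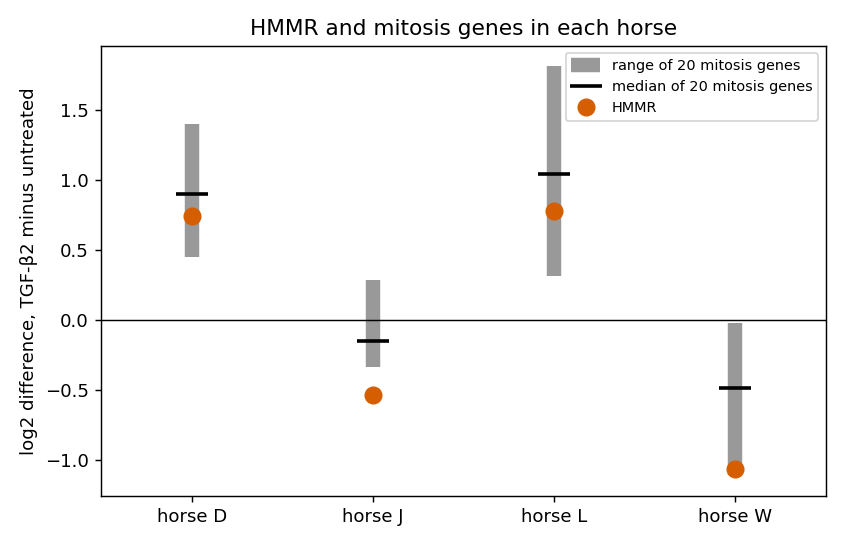
Log2 difference, TGF-β2-treated minus untreated, in each horse: the circle is HMMR, the grey bar is the range of 20 mitosis genes and the black line their median. HMMR lies within the range of the list in horses D, L and W and below it in horse J (-0.53 against a lowest value of -0.34).

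CEMIP, which binds hyaluronan and is needed for its depolymerisation by fibroblasts, was spread over a narrower range in the treated than in the untreated cultures. The untreated values were 13034, 48292, 2870.2 and 5078 normalized counts in horses D, J, L and W, a 16.8-fold spread. The treated values were 16534, 15244, 12354 and 22449, a 1.82-fold spread. Horses L and W, which had the lowest untreated levels, were 4.3-fold and 4.42-fold higher after treatment, horse D was 1.27-fold higher, and horse J, with the highest untreated level, was 3.17-fold lower. Limma gave a log2 fold change of 0.73 (SE 0.77, 95% interval -1.03 to 2.49, adjusted p = 0.539, and 0.437 with the block). Without horse J the value was 1.53 (adjusted p = 0.0815, and 0.0303 with the block, which would be a call), and without horse L or W it was 0.27 or 0.26. LOC100051276 (r = 0.96), SCLY and ELOVL1 were nearest in pattern. In horses L and W, CEMIP was thus higher and HAS2 lower after treatment, and in horse J CEMIP was lower and HAS2 higher, while both were higher in horse D.

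The pathway around these genes was examined through 6 lists of 46 genes, of which 30 had a row and 28 were tested. Of the 28, 5 rose and 3 fell, where 5.59% of all genes were called higher and 5.87% lower, and the median log2 fold change was 0.16 against 0.01 over all genes. PTX3, among those that rose, passed the filter on low values only through its treated libraries. With the horse as a block 8 rose and 3 fell, against 6.83% and 7.31% of all genes. The lists were chosen with earlier results of these data known, so these shares are a description and no test of the pathway. Scaling each library to its total brought the median of all genes to -0.30 and left 5 of the 8 calls. GFPT1 (0.82, adjusted p = 0.0110) and GNPNAT1 (0.86, adjusted p = 0.00838) then kept their p and dropped under the fold threshold, and LYVE1 (0.82, adjusted p = 0.0899) lost both.

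Genes that supply the sugar precursors gave 2 that rose and 1 that fell of 6 tested, beside 5.59% and 5.87% of all genes. GFPT1, the first enzyme of the hexosamine pathway that leads to UDP-N-acetylglucosamine, rose from 4294 ± 1229 to 9104 ± 671 normalized counts (log2 fold change 1.13, adjusted p = 0.00650). Its paralog GFPT2 fell from 12902 ± 7497 to 2506 ± 753 (log2 fold change -2.25, adjusted p = 0.00654) and was 3.02-fold to 8.37-fold lower in the single horses. GNPNAT1, which acetylates glucosamine 6-phosphate in the same pathway, rose from 1495 ± 239 to 3348 ± 387 (log2 fold change 1.17, adjusted p = 0.00158). The next enzyme, PGM3, named after its values were seen, was higher in all 4 horses with a log2 fold change of 0.96 (adjusted p = 0.00105), under the size that a call requires. UGP2, which leads to UDP-glucuronic acid, was likewise lower in all 4 horses without overlap but under the fold threshold (log2 fold change -0.49, adjusted p = 0.0227), and UGDH of the same branch was not called (log2 fold change -0.60, adjusted p = 0.154). Without the block the call of GFPT1 was lost without horse D or J and that of GFPT2 without horse D. With the block GFPT1 was lost without horse J alone and GFPT2 in none of these fits, and GNPNAT1 was called in every such fit of both kinds.

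Among 7 tested genes for matrix proteins that bind hyaluronan or hyalectans, TNFAIP6 and PTX3 rose and TNR fell. Beside them stand 5.59% of all genes called higher and 5.87% called lower. TNFAIP6 (TSG-6), which transfers heavy chains of inter-alpha-inhibitor onto hyaluronan, went from 13.1, 19.5, 53.7 and 65.9 normalized counts in horses D, J, L and W to 109.6, 169, 281 and 961. It was 5.22-fold to 14.6-fold higher in each horse (log2 fold change 3.06, adjusted p = 0.0223, and 0.00247 with the block). PTX3, a pentraxin that joins such complexes, had 2, 7, 0 and 1 untreated reads and 38, 11, 56 and 229 treated reads. It reached the filter's 10 normalized counts in treated libraries alone. PTX3 was thus tested only because of the group where it was high, and its call adds nothing to the share of this list. Its fitted log2 fold change was 4.59 (adjusted p = 0.0107), a value that depends on the pseudocount because 3 untreated libraries lay under the floor of 3 reads. TNR (tenascin-R), a ligand of the hyalectan lectin domain, fell from 40.7 ± 12.4 to 12.0 ± 9.91 (log2 fold change -1.89, adjusted p = 0.0337 in limma) and was not called by edgeR without the block. FBLN2, a fibulin that binds versican, had means of 24900.0 and 51088 and a log2 fold change of 1.06 that passed in limma with the block (adjusted p = 0.0146) but not without it (0.0589), and it was called by DESeq2 without the block (adjusted p = 0.0165). The calls in this list were uneven across horses. Without the block TNFAIP6 was called with 1 of the 4 horses left out, PTX3 with 1 and TNR with 2, and with the block TNFAIP6 was called in all 4 such fits.

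Other receptors were at low counts. LYVE1, the hyaluronan receptor of lymphatic endothelium and some macrophages, rose from 13.1 ± 4.42 to 29.4 ± 8.42 normalized counts (log2 fold change 1.11, adjusted p = 0.0476), a call that no fit on 3 horses kept. CDH5, the 1 endothelial marker with a row, was at 6.09 to 13.2 normalized counts untreated and 11.5 to 23.8 treated, and the part of endothelial cells in LYVE1 was not tested. LAYN (layilin) rose in limma only with the block (log2 fold change 1.58, adjusted p = 0.0462, and 0.0821 without it) and was lost without horse D, L or W.

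Of 6 tested genes for the breakdown of hyaluronan, 0 were called by limma with or without the block, by DESeq2 or by edgeR. Over all genes limma called 5.59% higher and 5.87% lower without the block. The log2 fold changes of the 6 ran from -0.51 (TMEM2, the membrane hyaluronidase also named CEMIP2) to 0.38 (HEXA, a lysosomal hexosaminidase subunit). HEXA was higher in all 4 horses (adjusted p = 0.0568 in limma, and 0.0211 with the block), under the fold threshold. The other hyalectans and link proteins, HAPLN2 and HAPLN4, had log2 fold changes of 0.19 and -0.59, and 0 of the 2 were called by limma, DESeq2 or edgeR. HAPLN4 was lower in all 4 horses, by 1.16-fold to 2.13-fold, and missed the fold threshold. Its adjusted p was 0.0514 in limma, 0.0440 with the block and 0.0275 in DESeq2.

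The proteinases that cut versican and aggrecan held the gene with the largest fall among the 28. ADAMTS5, a main aggrecanase, went from 11788, 5348, 4816 and 7546 normalized counts in horses D, J, L and W to 1222, 1739, 865 and 483. Every treated library was below every untreated one, by 9.65-fold, 3.08-fold, 5.57-fold and 15.6-fold within horses. It fell with a log2 fold change of -2.83 (SE 0.42, adjusted p = 0.00330, and 0.00605 with the block) and was called with each horse left out. ADAMTS9, another versican- and aggrecan-cleaving member, rose in limma only with the block (log2 fold change 2.09, adjusted p = 0.0166, and 0.320 without it), being 2.15-fold to 10.3-fold higher within horses that differed 45.2-fold untreated. ADAMTS1, ADAMTS4 and ADAMTS15 were not called, with log2 fold changes of -0.54, 0.68 and -0.77.

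**Figure D5:**
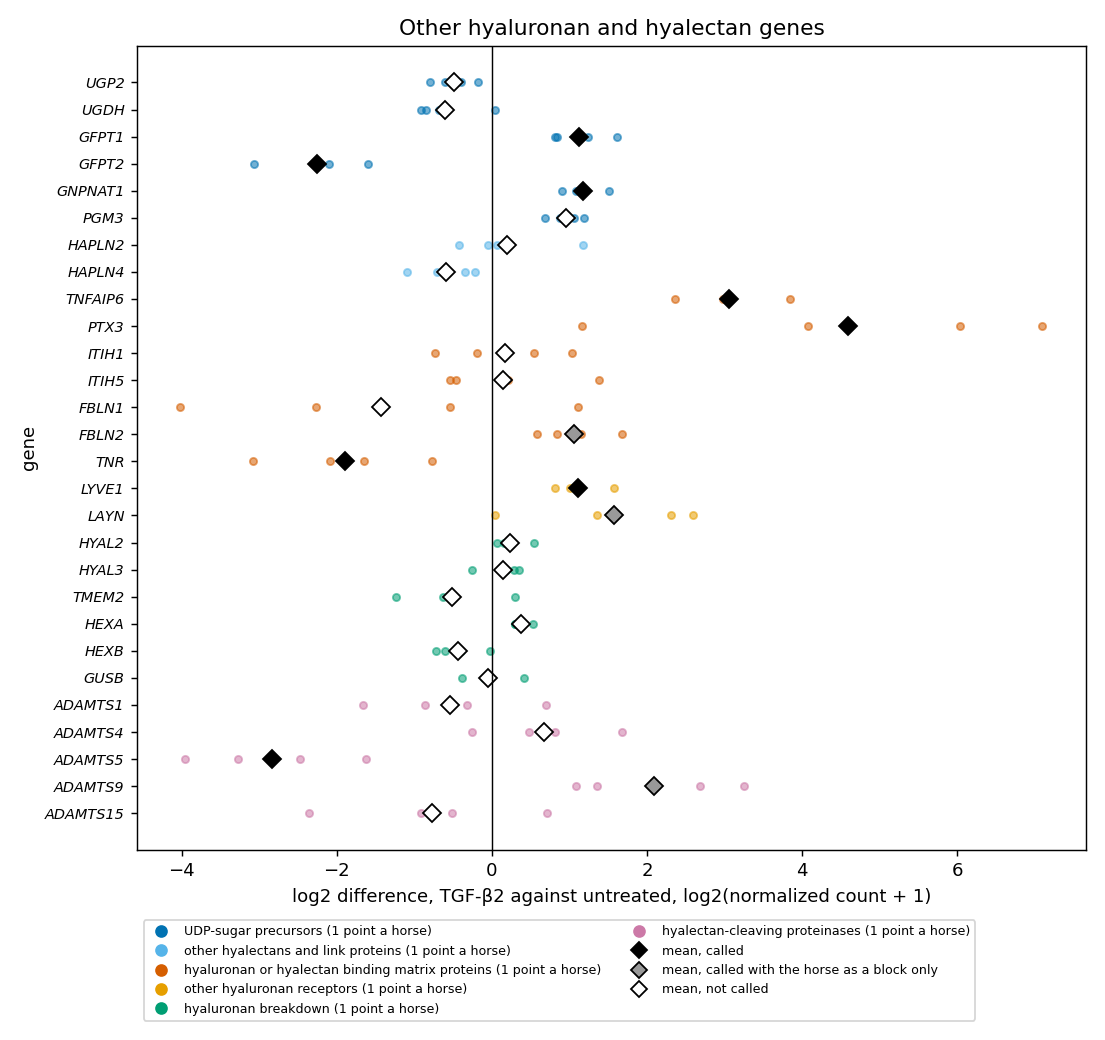
Log2 difference, TGF-β2-treated against untreated, of the 28 tested genes of the 6 pathway lists: circles are the 4 horses, coloured by list, and diamonds the mean, black where called, grey where called only with the horse as a block and open where not called. ADAMTS5, GFPT2 and TNR lie to the left of 0 and PTX3, TNFAIP6, GNPNAT1, GFPT1 and LYVE1 to the right.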

How the data were processed

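Per the labels and the study's methods, the authors used Trimmomatic 0.36 for trimming, STAR 2.5.2b for alignment to EquCab 3.0, featureCounts (Subread 1.5.2) for unique hits per gene, and DESeq2. The strand setting is not given in the sources used here. The deposited values are normalized counts, a signal in which the hits of a gene are scaled by the size factor of the library, so they need not be whole.

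Each value was divided by the value of 1 read in its library, and 100% came out whole (tolerance 0.01 read). A row without a gene name, 0.0281% to 0.0531% of the reads, was left out. Limma 3.58.1 (lmFit, eBayes with trend, R 4.3.3) was run on log2(normalized count + 1) for genes that reached 10 normalized counts in 4 or more of the 8 libraries, without a horse term, since the methods name none. P-values were adjusted over 14907 genes. Fold changes on this scale understate those of genes with low counts, and intervals and floors cover counting error only where they come from reads.

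Alternatives were the horse as a block, pseudocounts of 0.5 and 5, no filter or a filter at 50, scaling by total, upper quartile or TMM, eBayes without trend, count tests on recovered reads (DESeq2 1.42.0 and edgeR 4.0.16, each also with the horse), an adjusted p under 0.01, no fold threshold, and each horse left out. The horse letter pairs libraries of the same animal, and their deviations from the group means correlated across genes (r = 0.386 to 0.609 for the 4 pairs, mean 0.480). The mean for libraries of different horses was -0.159. Subtracting the group means makes that value negative when the first is positive, so it is no separate evidence that different horses are unlike.

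Named genes are the 9 with a row, the called genes of each list (with or without the block, at most 4 by fold change) and, for each of the 9, the 3 genes with the highest Pearson r over the 8 libraries, given without a p. The genes and lists were chosen with earlier results of these data known. An item covered by this rule is not reported here. The procedure was tested on simulated data with 200 changed genes. The simulation had no differences between horses and a common dispersion for all genes. It therefore does not check the fits on data in which horses differ as they do here. No sequences or coordinates are given, since no table used here holds them in the build of the files.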

Additional observations from a re-analysis of the deposited data

Results flagged for a closer look

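The untreated library of horse L held 198 normalized counts of ACAN (210 reads), far from the other 3 untreated libraries, which held 0 to 15.7. The gap to the nearest of them was 0.921 of the group's range, above Dixon's 95% critical value for 4 samples. The ratio was taken on normalized counts and not on their logs. Of 18 groups examined (9 genes, untreated and treated) it was the 1 that passed. Chance passes about 1 in 20 where values are normally distributed, so 1 flag in 18 groups is near that rate.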

How the results depend on the processing

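The log2 fold changes of the 9 genes were recomputed under up to 21 alternatives each, 187 values in all, of which 164 kept their direction and their side of the threshold. The call of HAS3 was absent (0 of the 9 genes called higher) with a filter at 50, where it was not tested, with total scaling, at an adjusted p under 0.01, and in all 8 fits with 1 horse left out (0 to 1 of the 9 called, the 1 being CEMIP without horse J, with the block). Direction turned for ACAN in DESeq2 with the block (0.61) and with a horse left out (-1.14 to 1.40), for HAS1 with a horse left out (-0.67 to 0.19), for HMMR in DESeq2 (0.0373), in edgeR (0.0365) and with a horse left out (-0.28 to 0.33), and for CEMIP in DESeq2 (-0.0599) and edgeR (-0.0632). No direction can be read from these 4 genes. Of the pathway genes 8 were called, 11 with the replicate block, 5 with a filter at 50, 5 with total scaling, 4 at an adjusted p under 0.01 and 2 to 10 with a horse left out. Over all genes 1709 were called, 2108 with the block, 885 at an adjusted p under 0.01, 3403 without a fold threshold and 718 to 2442 with a horse left out. The block changed no other call of the 9 genes. ACAN rested on 0 to 210 reads per library and HAS3 on 24 to 69, and the effect of depth was not tested. The causes were not tested.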

Other observations

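Genes of cartilage matrix, in which aggrecan is the main proteoglycan, were looked at beside ACAN. Of 16 listed, 9 were tested, 4 rose and 1 fell, where 5.59% of all genes were called higher and 5.87% lower. This list too was chosen with earlier results of these data known, so the shares are a description. SOX9, the transcription factor that drives cartilage genes, rose from 581 ± 254 to 1241 ± 159.5 normalized counts (SD, n = 4, log2 fold change 1.21, adjusted p = 0.0332 in limma). Its partner SOX5 fell from 125 ± 55.1 to 18.8 ± 7.93 (log2 fold change -2.65, adjusted p = 0.00528) and was 5.11-fold to 9.18-fold lower in the single horses. CILP, a matrix protein of the middle cartilage zone, rose from 22.4 ± 8.45 to 101 ± 26.9 (log2 fold change 2.13, adjusted p = 0.00415), and the small proteoglycan EPYC from 30.5 ± 12.6 to 107 ± 17.5 (log2 fold change 1.86, adjusted p = 0.00661). CHAD rose as well (log2 fold change 1.21, adjusted p = 0.0369). MATN3 fell in limma only with the horse as a block (log2 fold change -1.60, adjusted p = 0.0179, and 0.115 without it).

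SOX5 and CILP were called with each horse left out, EPYC without horse J or L, SOX9 without horse L alone and CHAD in none of these fits. With each library scaled to its total, which brings the median of all genes to -0.30, SOX9 had a log2 fold change of 0.90 (adjusted p = 0.0600) and CHAD of 0.90 (adjusted p = 0.0655). SOX9 was higher after treatment in all 4 horses, by 1.46-fold in horse L to 3.96-fold in horse D, whereas ACAN was higher in horses D and J and lower in horse L.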
